A study of Homo sapiens with 6 samples.

Results

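The UDP-glucuronosyltransferase (UGT) genes described here are 6 UGT2B genes of chromosome 4 (UGT2B4, UGT2B7, UGT2B10, UGT2B11, UGT2B15 and UGT2B17) and 3 UGT1A genes of chromosome 2 (UGT1A1, UGT1A6 and UGT1A9). These 9 genes were taken by name from the 20033 protein-coding genes of GENCODE release 44 on chromosomes 1 to 22, X and Y. The list was proposed with earlier results of these data known, although the rule itself uses no measured value. For each gene, the peaks of the UHRF1 tandem Tudor domain (TTD) were counted over the gene body, over 2.5 kb on each side of the transcription start site (TSS) and over the gene cluster that holds it. All coordinates are on hg38.

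The chromatin came from HepG2, an established human liver cancer cell line. Native mononucleosomes, released with micrococcal nuclease (MNase), were pulled down with the GST-tagged TTD of human UHRF1 in place of an antibody, an assay called CIDOP. The 6 libraries form 3 groups of 2 replicates each, namely TTD CIDOP, H3K9me2 ChIP and input, all from untreated HepG2 chromatin. The values below come from 1 list of 31569 TTD peaks called on the mean of both TTD replicates. It gives positions and widths but no signal, score or depth, so no spread between replicates can be stated for any value. The TTD was a recombinant domain added to chromatin fragments, so the peaks are not the positions of full-length UHRF1 in the cell, and the list holds no transcript level with which to check the expression of the UGT genes or the identity of the cells.

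UGT enzymes sit in the membrane of the endoplasmic reticulum and transfer glucuronic acid from UDP-glucuronic acid to bilirubin, bile acids, steroid hormones and many drugs, which makes these compounds soluble enough to leave the body in bile or urine. The liver is the main organ of this reaction. Each UGT2B gene is a complete gene with its own exons, whereas the UGT1A genes are alternative first exons, each with its own promoter, that are spliced to the same final exons. The TTD is the part of UHRF1 that binds histone H3 methylated at K9.

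The promoters of UGT2B10 and UGT2B11 are shown because they are close copies of each other with opposite cover by TTD peaks, those of UGT2B15 and UGT2B7 because they lie in 2 of the widest peaks of the cluster, and the 2 promoters of UGT1A6 because a peak covered the first and not the second. They run 5′ to 3′ on the strand of the gene, from 250 bases before to 50 bases after the RefSeq start (GRCh38.p14, the same bases as hg38), and capitals mark matches to the FOXA motifs TGTTTAC or TATTTAC or the TATA box TATAAA on either strand. UGT2B10 lies at chr4:68815744-68816043 (plus strand), UGT2B11 at chr4:69214699-69214998 (minus), UGT2B15 at chr4:68670603-68670902 (minus) and UGT2B7 at chr4:69096224-69096523 (plus). The UGT1A6 promoters lie at chr2:233691452-233691751 and chr2:233692640-233692939 (plus).
UGT2B10: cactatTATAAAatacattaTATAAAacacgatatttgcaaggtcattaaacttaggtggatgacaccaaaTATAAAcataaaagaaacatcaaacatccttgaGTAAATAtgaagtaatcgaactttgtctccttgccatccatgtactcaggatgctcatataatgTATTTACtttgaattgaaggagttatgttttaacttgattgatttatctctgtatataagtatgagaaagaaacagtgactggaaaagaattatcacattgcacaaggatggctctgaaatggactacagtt
UGT2B11: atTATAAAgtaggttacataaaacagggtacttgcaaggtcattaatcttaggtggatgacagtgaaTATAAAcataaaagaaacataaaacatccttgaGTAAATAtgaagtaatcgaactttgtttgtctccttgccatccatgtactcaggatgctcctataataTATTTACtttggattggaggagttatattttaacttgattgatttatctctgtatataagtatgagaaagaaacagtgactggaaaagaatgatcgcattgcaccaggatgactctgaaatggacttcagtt
UGT2B15: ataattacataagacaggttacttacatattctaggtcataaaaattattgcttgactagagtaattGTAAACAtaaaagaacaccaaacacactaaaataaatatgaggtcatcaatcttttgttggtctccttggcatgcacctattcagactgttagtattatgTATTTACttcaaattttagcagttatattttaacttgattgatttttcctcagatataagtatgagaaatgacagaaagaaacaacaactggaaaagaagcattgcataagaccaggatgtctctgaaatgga
UGT2B7: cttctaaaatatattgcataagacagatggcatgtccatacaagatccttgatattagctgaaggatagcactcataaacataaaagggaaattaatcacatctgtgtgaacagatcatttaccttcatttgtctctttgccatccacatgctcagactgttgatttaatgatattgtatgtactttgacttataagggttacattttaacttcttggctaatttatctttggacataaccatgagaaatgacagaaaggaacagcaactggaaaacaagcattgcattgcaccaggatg
UGT1A6, first start: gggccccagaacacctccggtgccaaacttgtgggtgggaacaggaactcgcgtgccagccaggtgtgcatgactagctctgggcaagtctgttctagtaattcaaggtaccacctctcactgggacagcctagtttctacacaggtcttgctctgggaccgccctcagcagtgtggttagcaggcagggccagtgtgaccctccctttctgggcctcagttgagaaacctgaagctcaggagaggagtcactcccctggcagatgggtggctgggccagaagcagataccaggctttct
UGT1A6, second start: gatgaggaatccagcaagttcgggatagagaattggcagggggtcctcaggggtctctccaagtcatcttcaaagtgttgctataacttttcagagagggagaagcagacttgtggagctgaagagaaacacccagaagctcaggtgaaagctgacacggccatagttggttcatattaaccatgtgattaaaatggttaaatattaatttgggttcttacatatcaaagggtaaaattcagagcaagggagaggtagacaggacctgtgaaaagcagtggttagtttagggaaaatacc

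Of the 9 UGT genes, 8 held at least 1 TTD peak in the gene body, 6 had one within 2.5 kb of the TSS and 5 had the TSS itself inside a peak. Over all 20033 genes, 34.2% had a peak in the body, 16.9% had one within 2.5 kb of the TSS and 2.19% had the TSS in a peak. The median share of the gene body in peaks, called cover here, was 23.6% for the 9 genes and 54.6% for their TSS windows, whereas the median over all genes was 0% for both. The members do not count as independent observations of TTD binding. The 13 peak counts of the 3 UGT1A genes fell on 6 distinct peaks, because the UGT1A genes overlap, and only the 11 peaks in the bodies of the UGT2B genes belonged to 1 gene each.

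**Figure D1:**
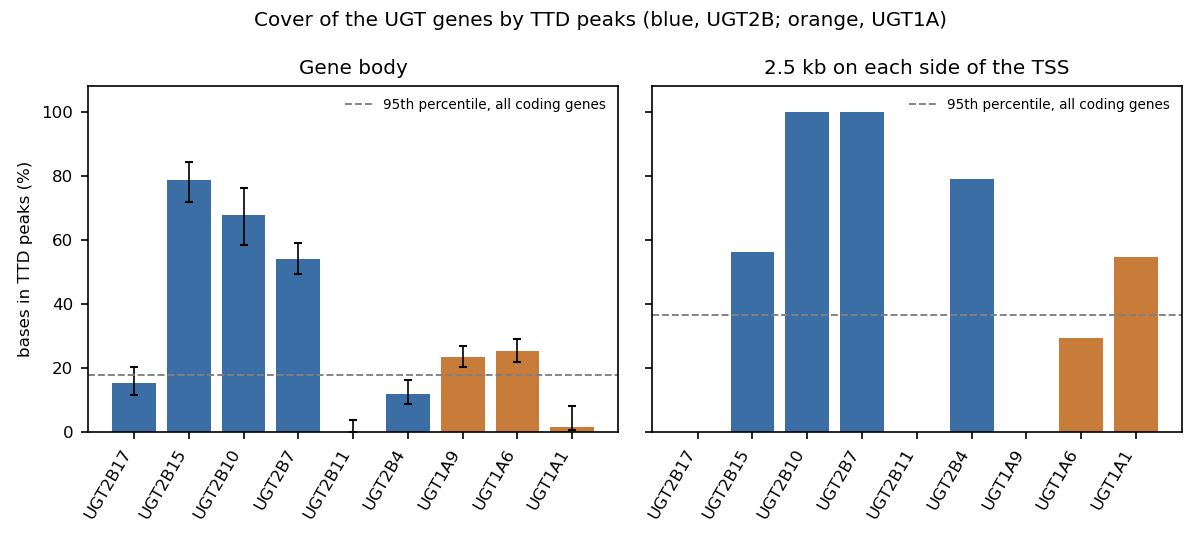
Percent of bases in TTD peaks for each of the 9 UGT genes, over the gene body (left) and over 2.5 kb on each side of the TSS (right). Bars are single values from the pooled peak list, error bars on the left are 95% Wilson intervals over 150 bp windows, and the dashed lines mark the 95th percentile of all coding genes (18.0% and 36.4%). UGT2B15, UGT2B10 and UGT2B7 stand highest in the left panel, and UGT2B17, UGT2B11 and UGT1A9 are at 0% in the right panel.

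UGT2B15, an enzyme of androgen glucuronidation, had the most covered body of the 9 genes. A single peak of 19220 bp (chr4:68651741-68670960) covered 78.6% of its 24.1 kb body, with a 95% Wilson interval of 71.8% to 84.4% over 150 bp windows, and touched 5 of its 6 exons. Only 0.309% of all genes had a body covered as much. The peak began 308 bp upstream of the TSS and ran 18911 bp into the gene, so that the 2.5 kb downstream of the TSS were covered to 100% and the 2.5 kb upstream to 12.3%. These intervals cover counting error only, and since they treat neighbouring windows as independent although these share peaks, they are too narrow.

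UGT2B10, which glucuronidates nicotine and other amines, lay under the widest peak of either cluster, of 20200 bp (chr4:68806641-68826840). By width this peak was number 73 of the 31569 peaks. It reached 9353 bp upstream and 10846 bp downstream of the TSS, covered 67.7% (58.5% to 76.0%) of the 16.0 kb gene and touched 4 of its 6 exons. The whole 5 kb window around the TSS was in the peak, which was the case for 0.250% of all genes.

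UGT2B7, the main enzyme for morphine and a broad enzyme for drugs and steroids, also had its whole TSS window in a peak (49.6% at the 5′ end of the gene record). This peak of 17330 bp (chr4:69092111-69109440) extended 4363 bp upstream and 12966 bp downstream of the TSS. The gene record of UGT2B7 is long (61.6 kb, chr4:69051363-69112987) because it includes transcripts that start upstream, and its 5 peaks covered 54.0% (49.3% to 58.9%) of it. Over the canonical transcript of 16.5 kb, 1 peak covered 78.5%, close to the cover of the UGT2B15 body. The other 4, of 4020, 4560, 3590 and 3800 bp, lay 22144 to 39244 bp upstream of the canonical TSS, and no canonical exon was touched by them.

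UGT2B4, an enzyme of bile acid glucuronidation, carried a narrower peak of 4750 bp (chr4:69492601-69497350) over its TSS, from 1445 bp upstream to 3304 bp downstream. It covered 78.9% of the TSS window. A second peak of 660 bp lay 10115 bp from the TSS within the gene. Together they covered 11.8% (8.93% to 16.3%) of the 45.9 kb gene record and 25.2% of the canonical transcript of 15.7 kb. UGT2B4 thus resembled UGT2B15, UGT2B10 and UGT2B7 in having its start in a peak, but not in the width of that peak. With the 5′ end of the gene record as the start, its TSS window was covered to 0%.

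UGT2B11 and UGT2B17 had no peak at their starts. UGT2B11 (chr4:69199951-69214748) was the only member without a peak in its body, where 0 of 98 windows of 150 bp were covered, a share whose Wilson interval reaches 3.77%. The nearest peak lay 18458 bp from its TSS, beyond the 3′ end of the gene. UGT2B17, like UGT2B15 an androgen-conjugating enzyme, held 2 peaks of 3890 and 2140 bp that covered 15.4% (11.5% to 20.2%) of its 39.2 kb body and, without peaks narrower than the median of the whole list, 9.91%. The nearer of them lay 14632 bp downstream of the TSS. The canonical TSS of UGT2B17 lies 7838 bp upstream of its start codon, whereas in the other 8 genes the distance is 18 to 115 bp. Its start codon was nevertheless 6794 bp from the nearest peak, and the 2.5 kb on each side of the start codon were covered to 0%. Counted around start codons, 6 of the 9 genes again had a peak within 2.5 kb, against 14.8% of 19847 genes.

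**Figure D2:**
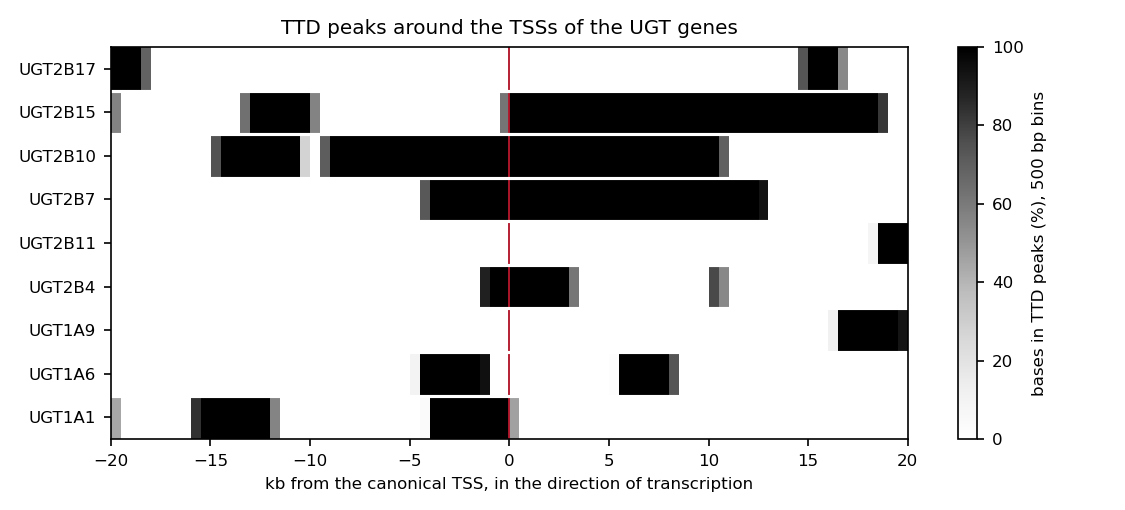
Cover of 500 bp bins by TTD peaks within 20 kb of the canonical TSS of each UGT gene, with negative distances upstream and positive distances downstream in the direction of transcription; black bins lie wholly in a peak. The peaks over UGT2B15 and UGT2B7 extend mainly downstream of the TSS, that of UGT2B10 extends to both sides, that of UGT1A1 lies upstream, and UGT2B17, UGT2B11 and UGT1A9 have white bins around the TSS.

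UGT2B10 and UGT2B11 allowed a comparison of near-identical promoters. In the alignment of the 2 sequences shown above, 274 of 296 aligned bases were equal (92.6%), yet TTD peaks covered 100% of the UGT2B10 promoter and 0% of the UGT2B11 promoter. The likeness extended beyond the promoter, since 99.96% of the 5 kb TSS window of UGT2B10 aligned to that of UGT2B11, at 91.2% identity. UGT2B28, another gene of the cluster that is not among the 9, aligned over 99.9% of the same window at 91.7% identity, and its TSS window and body were also covered to 0%. UGT2B15 and UGT2B17 were alike around the start codon but not around the canonical TSS, where 17.6% of the 5 kb window of UGT2B15 aligned to that of UGT2B17. Their coding sequences were 96.5% identical, and 78.1% of the 5 kb around the start codon of UGT2B15 aligned to UGT2B17 at 95.4% identity. This window, a centre chosen after seeing the data, was covered to 56.8% in UGT2B15 and to 0% in UGT2B17.

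Near-identical sequence also limits where reads can be placed, so the share of 50-base stretches that occur more than once in hg38 was counted. It was 18.2% in the TSS window of UGT2B10, 33.5% in that of UGT2B11 and 30.6% in that of UGT2B28. The paired-end reads of the paper were longer than 50 bases, so these shares do not give the part of the reads that could not be placed. Around the start codons of UGT2B15 and UGT2B17 the shares were close to each other, 26.9% and 27.4%. TSS windows with few repeated stretches were found on both sides, with 1.58% for UGT2B4 and 6.36% for UGT2B7, whose starts lay in peaks, and 4.52% for UGT1A9 and 4.65% around the canonical TSS of UGT2B17, whose windows held none. The part of read placement, and of the number of copies of these genes in HepG2, in the lack of peaks at UGT2B11 and around the start codon of UGT2B17 was not tested.

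The promoters were searched for motifs of liver transcription factors. A promoter was found for 7 of the 9 genes, and UGT1A6 had 2, which gave 8 promoters. The FOXA motif TATTTAC stood at position -82 in both UGT2B10 and UGT2B11 and at -83 in UGT2B15 (the first base of the match, counted upstream from the start). A match to TATTTAC on the opposite strand began at -146 in UGT2B10 and at -150 in UGT2B11, and one to TGTTTAC at -183 in UGT2B15. TATAAA matched at -244, -230 and -179 in UGT2B10, at -248 and -183 in UGT2B11 and, on the opposite strand, at -92 in UGT1A1. None of these matches lay close to the start, and whether any acts as a TATA box was not tested. Of the 35116 promoters in the RefSeq table, 2.67% held TATTTAC, 3.42% TGTTTAC and 11.5% TATAAA. The motif CAAAGTCCA of HNF4 (0.384% of all promoters) and the longer consensus of HNF1 (0.0285%) matched in none of the 8, and no searched motif matched in UGT2B7, UGT1A9 or either UGT1A6 promoter. The matches were therefore found in a covered and an uncovered promoter alike, and they describe letters, not binding.

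The UGT2B promoters were poor in G, C and CpG, and the UGT1A promoters varied. The 4 UGT2B promoters contained 30.3% to 35% G and C and 0 to 2 CpG dinucleotides, and the 4 UGT1A promoters 41% to 58% and 1 to 6, whereas the medians of all promoters were 58.7% and 14, with lower quartiles of 47% and 4. The first UGT1A6 promoter, with 58% and 4, was not below either quartile, and UGT1A1 was below that of G and C (44%) but not that of CpG (6). UGT2B7, UGT2B10 and UGT2B15, with 0, 2 and 0 CpG, were covered to 100%, and UGT2B11, with 2, to 0%.

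The UGT2 genes form 1 cluster of 1116 kb with 10 coding genes (chr4:68537173-69653249). It held 57 TTD peaks that covered 25.0% of it, with a Wilson interval of 24.0% to 26.0%. Chromosome 4 as a whole was covered to 2.14%, 11.7 times less, and none of the 170 adjoining windows of the same length on this chromosome was covered as much. The peaks were also wider, with a median of 3910 bp in the cluster and 2250 bp in the whole list. Peaks of at least 10 kb made up 4 of the 57 (7.02%), compared with 2.30% of the whole list. These were the peaks at the starts of UGT2B15, UGT2B10 and UGT2B7, and 1 of 17750 bp (chr4:69012961-69030710) that contained the starts of the pseudogenes UGT2B26P and UGT2B27P.

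**Figure D3:**
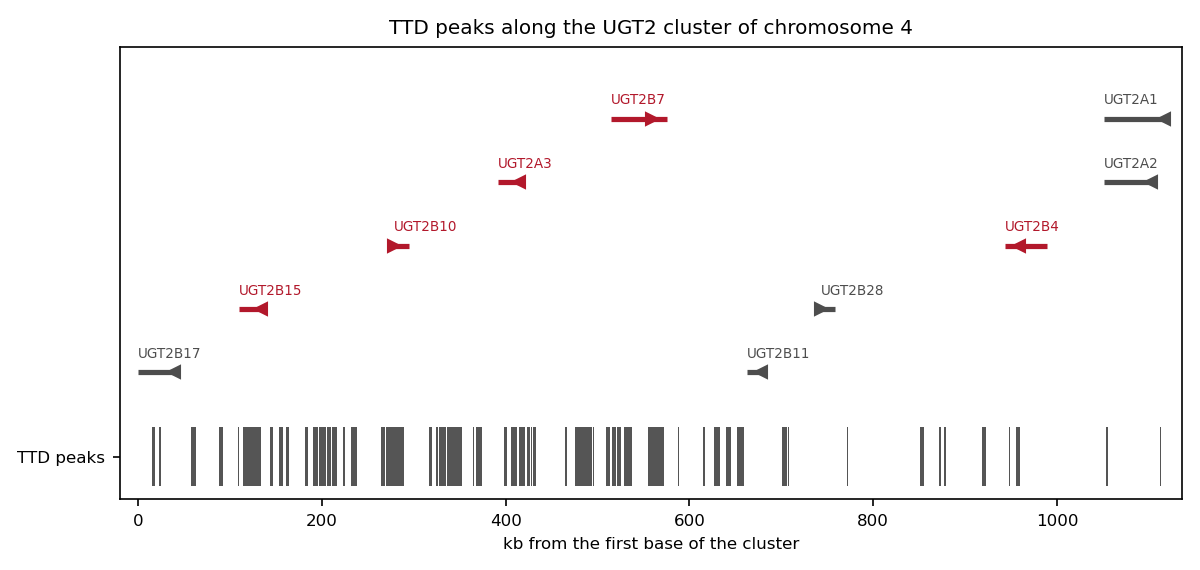
Map of the UGT2 cluster of chromosome 4 in kb from its first base, with the 57 TTD peaks to scale (grey boxes) and the coding genes as lines with an arrowhead at the canonical TSS pointing in the direction of transcription. Genes with the TSS in a peak are red, and peaks crowd in the left part, from UGT2B17 to UGT2B7, where 39.7% of the bases were in peaks.

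Within this cluster the peaks were uneven. The part from UGT2B17 to UGT2B7 held 41 peaks and was covered to 39.7%, whereas the part from the end of UGT2B7 to UGT2A1 held 16 and was covered to 9.40%. UGT2B15, UGT2B10 and UGT2B7 lay in the densely covered part, and UGT2B11 and UGT2B4 in the sparse one. The border between the parts was not set beforehand. The wide peaks at the starts of UGT2B15, UGT2B10 and UGT2B7 also count in the cover of the dense part, so the place of these genes in it is partly built in. UGT2B17 lay at the outer edge of the dense part, and the stretch between UGT2B17 and UGT2B15 was covered to 15.9%, against 41.3% between UGT2B15 and UGT2B10. Around UGT2B11, cover was 25.7% between UGT2B7 and UGT2B11 and 9.34% between UGT2B11 and UGT2B28. The longest stretch without a peak, 92720 bp (chr4:69497351-69590070), began at the end of the peak over the UGT2B4 start.

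The peaks of the UGT2 cluster were spread over the coding UGT genes and the sequence between them about in proportion to length. Of the 57 peaks, 41 touched no coding UGT body. The sequence between the coding UGT genes, which includes pseudogenes such as UGT2B26P and UGT2B27P, held 68.1% of the covered bases and made up 72.7% of the cluster. Of the bases in it, 23.4% were covered. The exons of the canonical UGT transcripts were covered to 25.8% and the rest of the gene bodies to 29.6%. Only 9 peaks touched an exon, and 48 lay more than 10 kb from every coding UGT TSS. The 5 peaks that contained a coding TSS, those of UGT2B15, UGT2B10, UGT2B7, UGT2B4 and UGT2A3, had a median width of 17330 bp (4750 to 20200 bp), and the other 52 had a median of 3810 bp (660 to 17750 bp).

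The UGT1A cluster spans 156 kb with 9 coding genes (chr2:233617633-233773300) and held 6 peaks that covered 15.4% (13.4% to 17.8%). Chromosome 2 was covered to 5.67%, and 10.1% of the 1555 adjoining windows of this length on it were covered as much, so that the UGT1A cluster stood out from its chromosome far less than the UGT2 cluster did from chromosome 4. None of its peaks reached 10 kb. No peak lay in the 54.3 kb from the UGT1A8 start to the UGT1A9 start. All 6 began between the starts of UGT1A9 and UGT1A1, where 26.8% of the bases were covered, and the last ran 230 bp past the UGT1A1 start. From the UGT1A9 side to the UGT1A1 side they were 3520, 2880, 1720, 7370, 4200 and 4250 bp wide. The first ended 1030 bp before the canonical UGT1A6 TSS, the second began 5491 bp after it, the third contained the UGT1A3 start, the fifth the start of the pseudogene UGT1A2P and the last the UGT1A1 start. The widest of them, the fourth (chr2:233733121-233740490), contained no start.

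**Figure D4:**
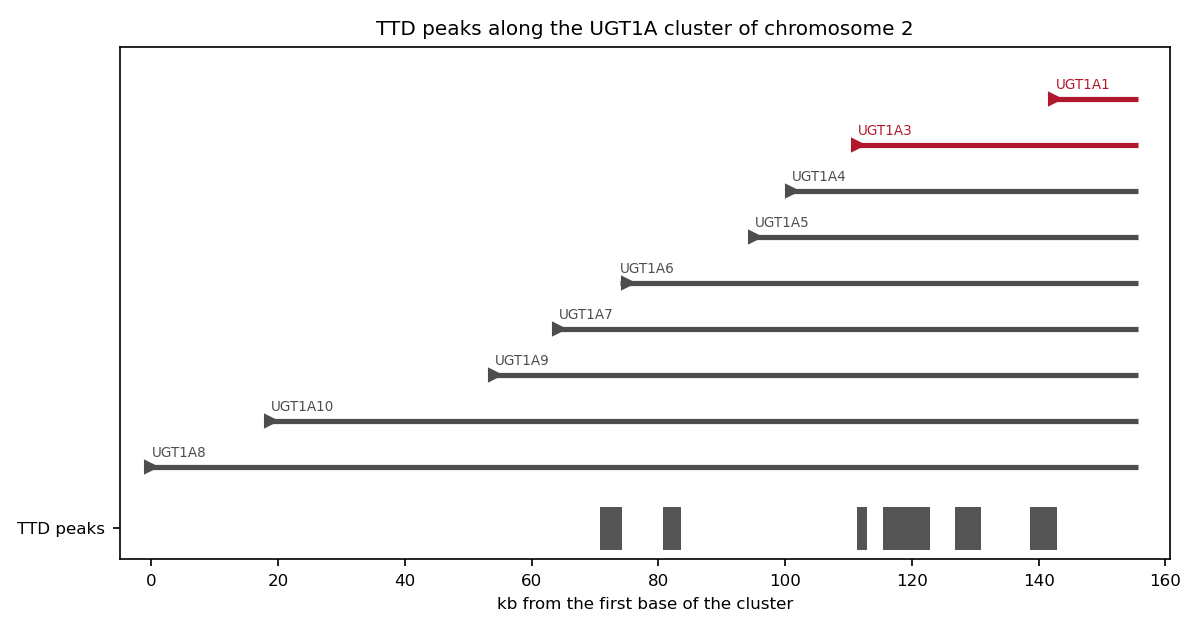
Map of the UGT1A cluster of chromosome 2 in kb from its first base, drawn as for the UGT2 cluster, with its 6 TTD peaks in grey and the 9 overlapping genes as lines that end at the same base. UGT1A1 and UGT1A3, in red, have the TSS in a peak, and no peak lies over the common final exons at the right end.

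UGT1A1, the only enzyme that conjugates bilirubin to a relevant extent, had its TSS in a peak of 4250 bp (chr2:233756251-233760500) that lay almost entirely upstream. It covered 100% of the 2.5 kb before the TSS and ended 230 bp into the gene, so that 9.24% of the 2.5 kb after the TSS and 1.77% of the body (interval 0.640% to 8.09%) were covered. This is the opposite of UGT2B15, whose peak ended 308 bp upstream of the TSS and covered the gene. UGT1A1 thus counted as a gene with a body peak through 231 bp at the 5′ end of its first exon.

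UGT1A6, which conjugates small planar phenols, had 6 peaks in its 81.7 kb gene record and a body cover of 25.3% (21.9% to 29.2%). Its result depended on the start. The canonical TSS at position 233692890 of chromosome 2 lay 1030 bp downstream of a peak of 3520 bp (chr2:233688341-233691860), which left 58.8% of the upstream 2.5 kb and 0% of the downstream 2.5 kb covered. The gene record begins at 233691607, inside this peak. Accordingly, the first UGT1A6 promoter shown above was covered to 100% and the second to 0%.

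UGT1A9, an enzyme for propofol and other phenols, had no peak within 2.5 kb of its TSS, and the nearest began 16443 bp downstream. Its body cover of 23.6% (20.5% to 26.9%) came from the same 6 peaks as that of UGT1A6, all of them in the first intron of UGT1A9. None of the 5 exons of the canonical transcripts of UGT1A9 and UGT1A6 touched a peak. The final exons 2 to 5, which all 9 UGT1A genes use (chr2:233767034-233773300 with the introns between them), were covered to 0%, and the nearest peak lay 6534 bp upstream of them. Among the 9 first exons, that of UGT1A3 was covered to 100%, that of UGT1A1 to 26.2% and the other 7 to 0%.

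Among the 13 other UGT genes, 9 had a peak in the body and 2 had one within 2.5 kb of the TSS, both with the TSS in a peak. These are not a separate set of observations. The 6 other UGT1A genes held only peaks already counted for UGT1A1, UGT1A6 and UGT1A9, and UGT2A1 and UGT2A2 shared a peak. Over all genes, 34.2% had a peak in the body, 16.9% one within 2.5 kb of the TSS and 2.19% the TSS in a peak. The 2 were UGT2A3 of the UGT2 cluster, with 46.7% of its body and 66% of its TSS window covered, and UGT1A3, with 39.3% and 34.4%. UGT2B28, UGT3A1, UGT3A2 and UGT8, of which the last 3 lie outside both clusters, had no peak in the body. Of the 4 genes that supply, carry or remove glucuronic acid, only UGP2, which makes UDP-glucose, had body peaks (24.3% covered). UGDH, which oxidises UDP-glucose to UDP-glucuronic acid, the transporter SLC35D1 and the lysosomal glucuronidase GUSB had none, and none of the 4 had a peak within 2.5 kb of the TSS. Beside the shares of all genes, 34.2% and 16.9%, counts over 4 genes do not set this list apart.

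The flanks on all 4 sides of the clusters were less covered than the clusters. The 50 kb before the UGT2 cluster were covered to 4.3% and those after it to 9.66%. The nearest coding gene before it, the protease gene TMPRSS11E, held no peak, but the nearest one after it, the sulfotransferase gene SULT1B1, was covered to 41.3% with its TSS in a peak. For the UGT1A cluster the flanks were covered to 8.82% before and 0% after, and its neighbours USP40 and MROH2A to 4.79% and 0%.

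Side by side with 4 other clusters of metabolic enzyme genes, the UGT clusters were neither the most nor the least covered. The CYP3A genes (cytochromes P450) were covered to 36.5%, the GSTA genes (glutathione transferases) to 35.6%, the ADH genes (alcohol dehydrogenases) to 17.8% and the CYP2C genes to 2.33%, compared with 25.0% for UGT2 and 15.4% for UGT1A. These are single values from 1 pooled list and the differences were not tested.

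**Figure D5:**
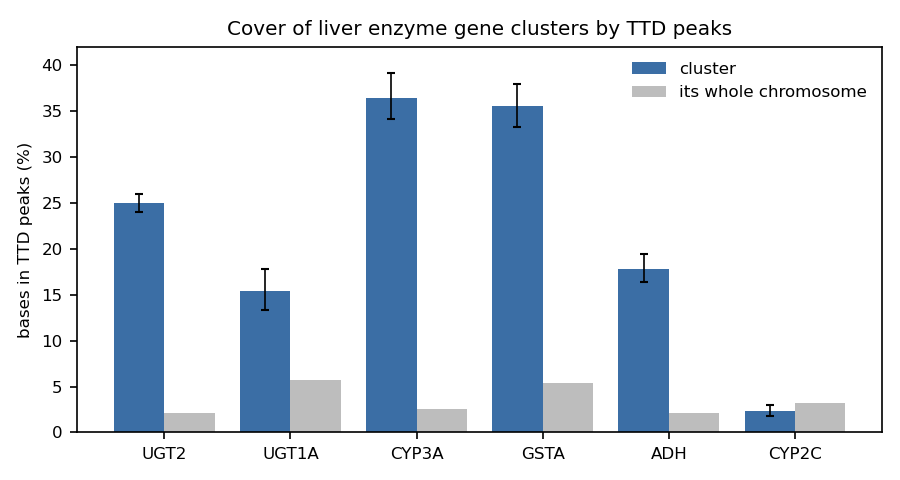
Percent of bases in TTD peaks for the UGT2 and UGT1A clusters and 4 other enzyme gene clusters (blue bars) beside the value of the whole chromosome that holds each (grey bars). Error bars are 95% Wilson intervals over 150 bp windows. CYP3A (36.5%) and GSTA (35.6%) stand above UGT2 (25.0%), and CYP2C (2.33%) is the only cluster below its chromosome (3.17%).

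The bases in peaks differed little in composition from the rest of each cluster. G and C made up 36.5% of the bases in the peaks of the UGT2 cluster and 35.4% of those outside, and 43.4% and 40.7% in the UGT1A cluster. Repeated 50-base stretches made up 11.0% of the peaks and 12.2% of the whole UGT2 cluster, and 13.9% and 11.0% in the UGT1A cluster.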

How the data were processed

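Native HepG2 mononucleosomes were precipitated with the TTD (2 replicates) beside H3K9me2 ChIP (2) and input (2). Per the labels and methods, the authors used Trimmomatic 0.38 for trimming, HISAT2 2.2.1 for mapping to hg38 and deepTools 3.3.2 for RPKM coverage (10 bp bins, blacklisted regions left out). Replicate coverage was averaged, MACS2 2.1.1 gave broad peaks from this average at set cutoffs, and blacklisted regions were then taken out, as were, by hand, artifacts and large peaks judged false, which bears on the widths of the peaks that remain. The deposited list gives positions and widths only, so the depth of each library is not known from it and no replicate error or test between samples can be had. The signals of the single libraries were not analysed here.

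From the deposited list, cover was computed as shared bases between peaks and hg38 features of GENCODE release 44 (the canonical transcript for the TSS, the gene record for the body). This gave the same values as a base-by-base count in 5000 of 5000 simulated windows. A gene counted as having a peak from 1 shared base. Wilson intervals (95%) are over 150 bp windows with at least 50% in peaks and cover counting error only. Cluster borders are the outermost ends of the coding UGT genes. Promoters came from RefSeq, identities from blastn and Biopython 1.88, and all else from Python 3.11.15, numpy 2.4.6, pysam 0.24.0, samtools 1.23.1 and matplotlib 3.10.9. All 9 genes are named, then the other UGT genes, 4 genes of glucuronic acid supply and removal, and the neighbours of both clusters. The genes, lists and compared clusters were chosen with earlier results of these data known. Alternatives used wider peaks only, joined peaks, other borders and other TSSs. The start codon as a centre was added after seeing the data. The split of the UGT2 cluster at the end of UGT2B7 was not set beforehand either.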

Additional observations from a re-analysis of the deposited data

How the results depend on the processing

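The counts of UGT genes with a peak stayed within 1.5 times of those reported under every alternative tried: 7 or 8 of 9 for the body, and 5 or 6 of 9 for the TSS window, where 5 were left with 1 kb on each side or with the 5′ end of the gene record. Over all genes, the shares under these alternatives were 10.1% to 34.2% for the body and 7.31% to 24.9% for the TSS window. The cover of the UGT2 cluster moved beyond its interval when peaks narrower than the median were dropped (23.1%) and with 50 kb added on each side (23.5%), as did that of the UGT1A cluster with 50 kb added (11.1%). The median body cover ranged from 21.9% to 25.2%. For single genes, 24 of 27 alternative body values and 47 of 54 alternative TSS values stayed within their intervals. These counts do not measure stability. The TSS windows of UGT2B11, UGT2B17 and UGT1A9 stayed at 0% under every alternative, and dropping narrow peaks or joining peaks changed no TSS value. At the 5′ end of the gene record in place of the canonical TSS, the TSS window of UGT2B4 was covered to 0%, that of UGT2B7 to 49.6% and that of UGT1A6 to 55.1%. Within 1 kb of the canonical TSS, UGT1A6 was covered to 0%. The start codon in place of the TSS, added after seeing the data, left 6 of 9.

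No paired analysis was possible from the peak list used here, because its peaks were called on the mean of both TTD replicates. Leaving out 1 replicate gave no value for the same reason. A lack of a peak holds only for the cutoff of the authors, at a depth that the list does not give.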

Other observations

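Of the 10 pseudogenes of the family in or near the clusters, 6 had the start in a peak. UGT2B26P and UGT2B27P, which face away from each other in the UGT2 cluster, each had 100% of the 5 kb around the start in peaks, and UGT2B25P and UGT2B24P had 68.6% and 41.6%. All 4 starts lay in a peak, as did 2.19% of coding TSSs, but the share over all pseudogenes was not computed. Of the 3 coding UGT genes between these pairs on the chromosome, UGT2B7 had its start in a peak, and the starts of UGT2B11 and UGT2B28 were 18458 and 28406 bp from the nearest one. UGT1A2P in the UGT1A cluster and UGT1A11P before it were each covered to 100%, over 866 and 849 bp, with the start in a peak and 76.7% and 46.2% of the 5 kb around it covered. UGT2B29P, UGT2A3P7, UGT1A12P and UGT1A13P held no peak.

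The wider surroundings of the starts were also measured. Within 100 kb on each side of the TSS, any peak at the TSS included, cover was 47.9% for UGT2B10, 41.1% for UGT2B7 and 35.5% for UGT2B15, and lower for UGT2B17 (19.3%), UGT2B11 (14.7%) and UGT2B4 (8.03%). UGT2B4 therefore had its TSS in a peak with the least covered surroundings of the 6 UGT2B genes, and UGT2B17 and UGT2B11 had none with more. These values are not all separate. The window of UGT2B15 overlaps those of UGT2B17 and UGT2B10, and the windows of UGT2B7 and UGT2B11 overlap. That of UGT2B17 holds the whole peak of 19220 bp at the UGT2B15 start, which adds to its 19.3%. For UGT1A1, UGT1A6 and UGT1A9, whose windows overlap, the values were 13.4%, 13.1% and 14.2%.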
